A study of Mus musculus with 11 samples.

Results

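The 38 genes described here belong to the interferon-stimulated genes, and their messenger RNA was counted in adrenal glands of male mice with and without testes. They were chosen by name, as a list of genes known for their response to interferons, but with earlier results of these data known. All 38 are among the 23337 gene symbols of the deposited count table. The comparison was between 6 samples from orchectomized mice, whose testes were removed (ORX 1 to 6), and 5 samples from mice that kept them (intact 1 to 5). Both groups were of the strain Hsd:Athymic Nude-Foxn1nu, which lacks a working thymus and is therefore poor in T cells, and both had received VCaP, a line of human prostate cancer cells. Mice aged about 5 to 6 weeks were given the cells in week 0, were allocated to the groups in week 7 and had their glands taken in week 15. Tumour size was not used here.

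Interferons are secreted proteins that warn cells of infection. Type I interferons act through the receptor of Ifnar1 and Ifnar2 and a factor that contains STAT2 and IRF9 and binds a DNA motif called ISRE. Interferon gamma, made mainly by T and natural killer cells, acts through Ifngr1 and Ifngr2, and many of its target genes carry the GAS motif. The induced genes sense foreign nucleic acid, block viral replication and, above all after interferon gamma, adapt the proteasome and the peptide transporter for antigen presentation. The members were sorted by textbook knowledge into 22 genes of a type I class, 10 of a gamma class (Irf1, Gbp2, Gbp3, Gbp5, Gbp6, Psmb8, Psmb9, Psmb10, Tap1 and Tap2) and 6 that respond to both kinds (Stat2, Irf9, Ifi35, Parp14, Trim25 and Zbp1). The border is not sharp, since many of these genes answer to either interferon.

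Total counts ranged from 11368447 to 15029582 per library, of which the 38 members took 0.127% to 0.197%. Levels are given in CPM, which relates each count to its library's total after TMM scaling. Markers of the adrenal cortex were abundant in each library, with 8 genes summing to 61247 to 93671 CPM in ORX and 34419 to 76865 CPM in intact libraries, the lowest being intact 3. ORX 6 differed most from its group by transcript length. On the log2 scale, its median deviation from the group was 0.72 for the shortest of 20 gene length classes and -0.60 for the longest. ORX 4 went the other way, at -0.34 and 0.31, and ORX 1 to 3 did so by less, while ORX 5 had 0.10 and -0.13. These deviations are from a group mean that includes ORX 6.

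All 38 members passed the filter on low counts. Of these, 2 rose in ORX, Dhx58 and Xaf1, and 0 fell, at a threshold of 0.05 on the p adjusted over 14139 genes (quasi-likelihood test of edgeR, two-sided, adjusted by Benjamini and Hochberg). That is 5.26% of the members, against 3.03% of all tested genes called higher, 3.18% called lower and 6.21% in either direction. At an unadjusted p under 0.05, 18 members were higher and 0 lower, which is 47.4% of the members on the higher side, against 10.7% of all tested genes higher and 12.2% lower. The log2 fold change was above 0 for 32 of 38 members (84.2%, against 51.3% of all tested genes). Its median was 0.46 for the members and 0.01 for all tested genes. In a further list of interferon-stimulated genes outside the members, part of the pathway list below, 35 genes were tested and 0 passed with edgeR. The log2 fold change was above 0 for 22 of these 35 (62.9%), with a median of 0.145. At an unadjusted p under 0.05, 6 of the 35 were higher (17.1%) and 3 lower. DESeq2 called 8 members higher (Dhx58, Xaf1, Cmpk2, Ifi35, Irf7, Mx2, Psmb10 and Rtp4) and 0 lower, where it called 5.16% of all genes higher and 5.81% lower. Limma voom called 7 members higher (Ifih1 in place of Irf7 and Rtp4) and 1 lower, Ifi27l2a, where it called 6.8% of all genes higher and 7.74% lower.

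**Figure D1:**
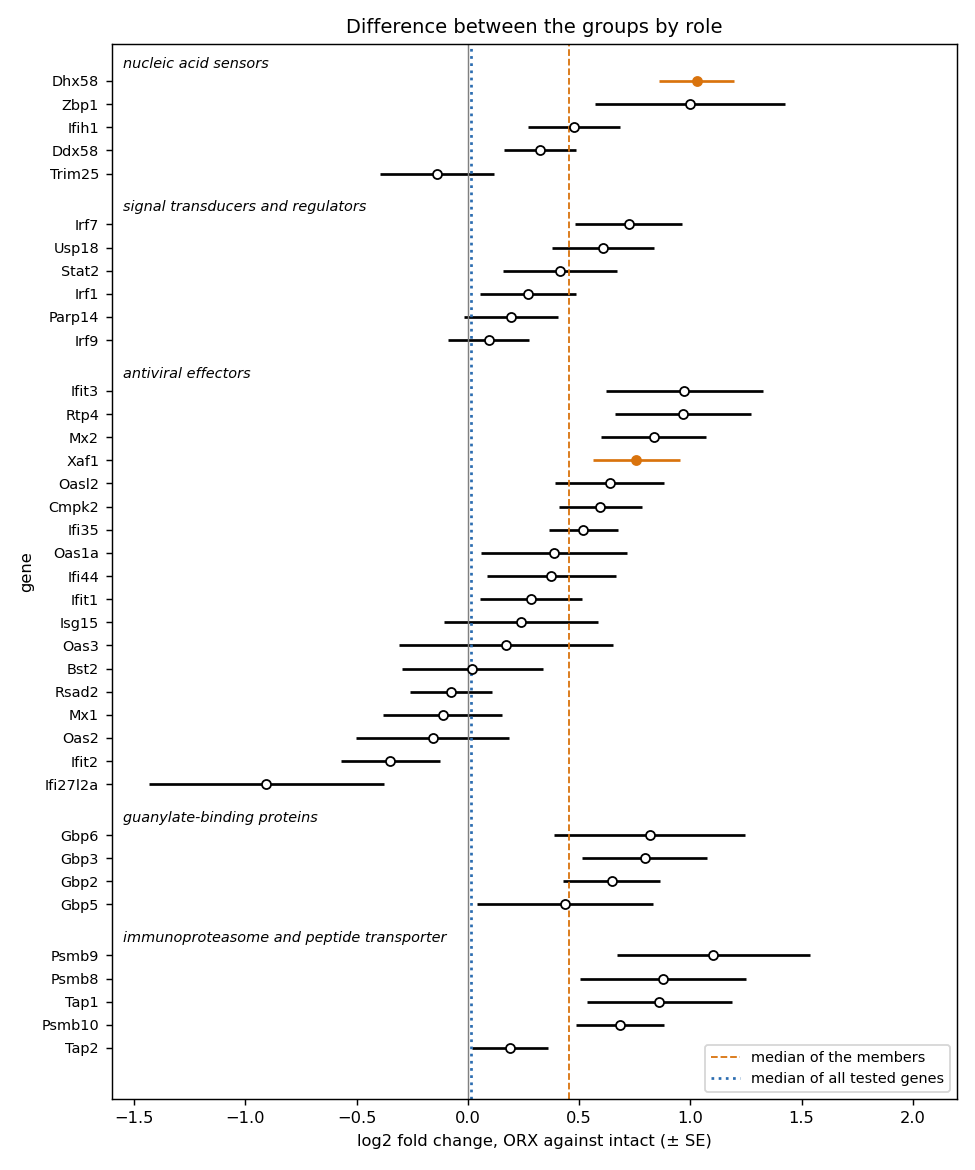
Log2 fold change of ORX against intact (horizontal axis, with standard error) for each of the 38 members, grouped by role. Filled orange points passed the test and open points did not; the dashed line is the median of the members (0.46) and the dotted line that of all tested genes (0.01).

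Among the sensors of foreign nucleic acid, Dhx58 (chromosome 11, 100694884 to 100704271, GRCm38) encodes LGP2, which assists the RNA sensor MDA5 and regulates RIG-I. It had 31.7, 49.1, 31.5, 47.5, 36.1 and 45.2 CPM in ORX 1 to 6, against 18.4, 16.0, 18.8, 22.1 and 23.1 CPM in intact 1 to 5. Every ORX library lay above every intact library. The means were 40.2 ± 8.01 CPM in ORX and 19.7 ± 2.90 CPM in intact (SD, n = 6 and 5). The log2 fold change, given here and below with its SE, was 1.03 ± 0.17 (edgeR adjusted p = 0.0035). Dhx58 passed in each of the 20 alternative fits. An antisense gene, Dhx58os, overlaps it, and without a stated strand setting reads of that gene cannot be told apart from its own.

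The other sensors did not pass. Ddx58, which encodes RIG-I, averaged 76.6 ± 13.1 CPM in ORX and 61.2 ± 12.0 CPM in intact (SD, n = 6 and 5; log2 0.32 ± 0.16). Ifih1, which encodes MDA5, averaged 26.3 ± 7.30 CPM in ORX and 18.9 ± 2.10 CPM in intact (log2 0.48 ± 0.21; edgeR adjusted p = 0.19), with 5 of 6 ORX libraries above the highest intact library and ORX 6, at 13.6 CPM, below the lowest. Without ORX 6 it passed (edgeR adjusted p = 0.027), and with the offset by transcript length it did not. Zbp1, a sensor of left-handed nucleic acid, was among the most scattered members, at 4.17, 15.1, 8.33, 5.40, 1.76 and 5.66 CPM in ORX 1 to 6, against 4.30, 2.38, 3.38, 2.76 and 4.02 CPM in intact 1 to 5. ORX 2 alone was over 3 times the highest intact library, and ORX 5 was below all of them (log2 0.998 ± 0.43; edgeR adjusted p = 0.181). Trim25, a ubiquitin ligase that acts on RIG-I, had the highest mean of these genes also per length (56.9 CPM per kilobase of the longest transcript in ORX and 62.6 in intact), with 278, 289.9, 300.2, 318, 353 and 369 CPM in ORX 1 to 6, against 526, 503, 167, 249 and 306 CPM in intact 1 to 5. The ORX libraries lay inside the range of the intact ones (log2 fold change -0.14 ± 0.26, with its sign turned without intact 1 or intact 2).

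Of the 6 signal transducers and regulators, 0 passed the test of edgeR, where 3.03% of all tested genes were called higher and 3.18% lower. There were 2 higher (33.3%) and 0 lower at an unadjusted p under 0.05, against 10.7% and 12.2% of all tested genes. All 6 had a log2 fold change above 0 (median 0.34), against 51.3% of all tested genes. DESeq2 called 1 of the 6 higher, Irf7, and limma voom 0, where they called 5.16% and 6.8% of all genes higher. Irf7, the transcription factor that amplifies type I interferon production, had 24.1, 56.1, 69.0, 59.1, 35.4 and 69.5 CPM in ORX 1 to 6, against 35.5, 30.8, 30.5, 32.6 and 28.7 CPM in intact 1 to 5. The ORX libraries split: ORX 2, 3, 4 and 6 stood above every intact library, ORX 5 was inside the intact range and ORX 1 was below it. The log2 fold change was 0.72 ± 0.24 (edgeR adjusted p = 0.0921), and Irf7 passed without ORX 1 (edgeR adjusted p = 0.020). Stat2, a subunit of the type I factor, had 86.7, 187, 121, 124, 62.1 and 70.0 CPM in ORX 1 to 6, against 96.7, 64.4, 69.5, 89.2 and 87.1 CPM in intact 1 to 5. ORX 2, 3 and 4 lay above the intact libraries and ORX 5 below them (log2 0.41 ± 0.26; edgeR adjusted p = 0.361). Its partner gene Irf9 averaged 59.7 ± 13.1 CPM in ORX and 56.0 ± 10.4 CPM in intact, a difference whose sign turned without intact 3. Usp18, which removes ISG15 from proteins and restrains receptor signalling, was at log2 0.61 ± 0.23, the transcription factor gene Irf1 at 0.27 ± 0.22 and the ADP-ribosyltransferase gene Parp14 at 0.19 ± 0.21.

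The 18 antiviral effectors held the other call. Xaf1 (chromosome 11, 72301629 to 72313733), whose product promotes apoptosis, had 17.7, 23.3, 22.7, 21.7, 19.3 and 36.2 CPM in ORX 1 to 6, against 13.7, 11.0, 16.4, 14.6 and 13.8 CPM in intact 1 to 5. Its groups did not overlap, and ORX 6 was the highest. The means were 23.5 ± 6.58 CPM in ORX and 13.9 ± 1.97 CPM in intact (SD, n = 6 and 5; log2 0.76 ± 0.20; edgeR adjusted p = 0.0375). The call was lost without any 1 of 7 libraries (ORX 2, 4 or 5, or intact 1, 2, 4 or 5; edgeR adjusted p up to 0.0893). Mx2, a gene of the Mx GTPase family, also separated the groups, at 3.66, 4.28, 5.31, 6.77, 4.24 and 5.58 CPM in ORX 1 to 6, against 2.26, 2.97, 2.12, 3.26 and 3.33 CPM in intact 1 to 5 (log2 0.83 ± 0.23), but its edgeR adjusted p was 0.0523. Such a separation with ORX higher was seen for 3 of 38 members (7.89%) and for 2.92% of all tested genes, and one with ORX lower for 0 members and 2.36% of all tested genes.

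Ifit3, an RNA-binding effector, had 15.8, 45.0, 22.3, 18.0, 7.53 and 26.5 CPM in ORX 1 to 6, against 10.1, 10.3, 8.68, 13.2 and 15.2 CPM in intact 1 to 5. Every ORX library but ORX 5 lay above the intact ones (log2 0.97 ± 0.35; edgeR adjusted p = 0.12, and 0.048 without ORX 5). Ifit3 may share reads with its near-identical neighbour Ifit3b, so its level is uncertain. Rtp4, which restricts flaviviruses, had 12.6, 39.6, 44.9, 33.0, 17.9 and 28.7 CPM in ORX 1 to 6, against 15.2, 14.4, 9.41, 19.4 and 17.0 CPM in intact 1 to 5 (log2 0.97 ± 0.31; edgeR adjusted p = 0.0775). ORX 1 and 5 were among the intact libraries. Cmpk2, a mitochondrial nucleotide kinase, and Oasl2, of the oligoadenylate synthetase family, were at log2 0.59 ± 0.19 and 0.64 ± 0.25, and Ifi35 at 0.52 ± 0.16.

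Not all effectors leaned upward. Ifi27l2a, a small interferon-inducible gene, was the most abundant per length, at 347 CPM per kilobase of the longest transcript in ORX and 649.98 in intact, a scale on which Bst2, the tetherin gene and next in order in both groups, reached 70.6 and 69.6. Ifi27l2a had 103, 38.2, 286, 52.7, 105 and 379 CPM in ORX 1 to 6, against 274, 278, 452, 130.2 and 371 CPM in intact 1 to 5. ORX 1, 2, 4 and 5 lay below every intact library, and ORX 3 and 6 inside their range (log2 -0.91 ± 0.53; edgeR adjusted p = 0.332). It passed as lower with limma voom (adjusted p = 0.028). The sum of 8 markers of fat was 2747 to 12915 CPM in ORX, highest in ORX 3 and 6, and 4455 to 11704 CPM in intact, highest in intact 3. ORX 3 and 6 and intact 3 were also the highest of their groups for Ifi27l2a. Its longest transcript, of 463 bases, is the shortest among the members. The shortest length class deviated from its group by 0.72 in ORX 6, 0.24 in intact 3 and -0.06 in ORX 3. The parts of fat tissue and of transcript length in this pattern were not tested. Isg15 (756 bases) and Bst2 (792 bases) were also highest in ORX 6 among ORX libraries, but in intact 5 among intact ones. Isg15, the ubiquitin-like modifier, had 3.66 CPM in ORX 1 and 17.2 CPM in ORX 6, against 6.28 to 11.1 CPM in intact libraries (log2 0.24 ± 0.35). Ifit1 (0.28 ± 0.23), Ifi44 (0.38 ± 0.29), Oas1a (0.39 ± 0.33), Oas3 (0.17 ± 0.48), Bst2 (0.02 ± 0.32), Rsad2 (-0.07 ± 0.18), Mx1 (-0.11 ± 0.27), Oas2 (-0.16 ± 0.34) and Ifit2 (-0.35 ± 0.22) did not pass (log2 fold change ± SE). Of these and Isg15, the signs of Bst2, Isg15, Oas3, Rsad2 and Mx1 turned under another setting or without 1 library. Oas1a, Oas2 and Oas3 make the messenger that activates RNase L, and Rsad2 encodes viperin.

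**Figure D2:**
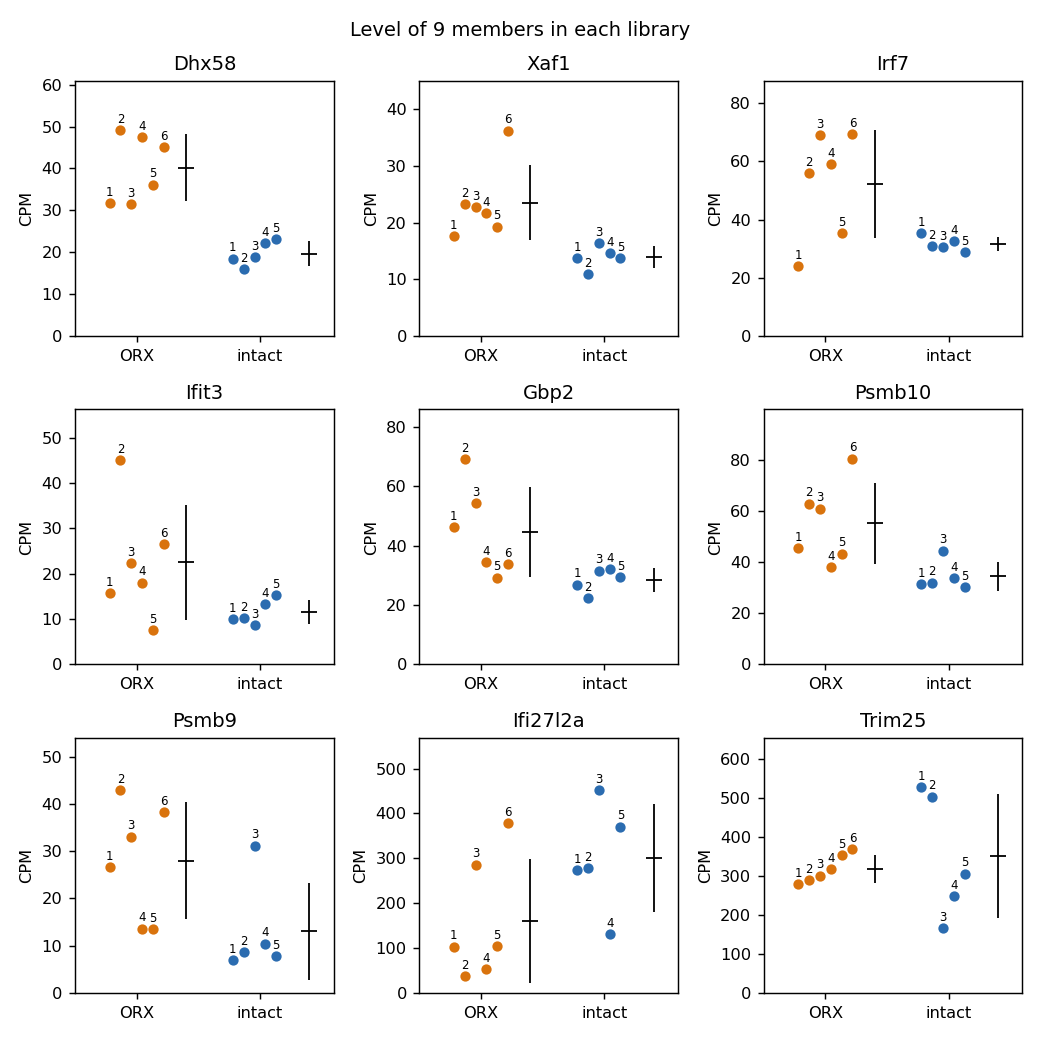
CPM (vertical axes, from 0) of 9 members in each ORX (orange, left, n = 6) and intact (blue, right, n = 5) library, numbered, and the black marks give each group's mean with its SD. Dhx58 and Xaf1 do not overlap between the groups, Irf7 and Ifit3 are scattered over the ORX libraries, and Psmb9 is high in intact 3.

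In the gamma class 0 of 10 genes passed the test of edgeR, where 3.03% of all tested genes were called higher and 3.18% lower. Higher at an unadjusted p under 0.05 were 6 (60%) and lower 0, against 10.7% and 12.2% of all tested genes. DESeq2 and limma voom each called 1 higher, Psmb10, where they called 5.16% and 6.8% of all genes higher. All 10 had a log2 fold change above 0, against 51.3% of all tested genes. The median was 0.74, against 0.38 for the 22 type I genes, and the difference between the classes was not tested. The guanylate-binding proteins are GTPases that attack vacuoles of intracellular pathogens. Gbp2 had 46.4, 69.3, 54.3, 34.5, 29.2 and 33.9 CPM in ORX 1 to 6, against 26.9, 22.3, 31.6, 32.2 and 29.4 CPM in intact 1 to 5. Every ORX library but ORX 5 was above the intact ones (log2 0.65 ± 0.22; edgeR adjusted p = 0.0948). Gbp6 had 10.3, 15.8, 16.2, 6.92, 3.20 and 3.62 CPM in ORX 1 to 6, against 3.79, 3.40, 7.02, 4.60 and 7.65 CPM in intact 1 to 5. ORX 1, 2 and 3 were high and ORX 5 and 6 were among the lowest of all libraries (log2 0.82 ± 0.43). Gbp3 was at 0.79 ± 0.28 and Gbp5 at 0.43 ± 0.40. The members of this gene family are alike, so the counting could have split reads between them.

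Of the immunoproteasome subunits, Psmb10 had 45.5, 63.1, 61.1, 38.0, 43.5 and 80.7 CPM in ORX 1 to 6, against 31.3, 32.1, 44.6, 33.9 and 30.4 CPM in intact 1 to 5. Only intact 3 reached into the range of the ORX libraries (log2 0.68 ± 0.20; edgeR adjusted p = 0.0581, and 0.038 without intact 3). Psmb9 had 26.7, 43.0, 33.1, 13.6, 13.5 and 38.2 CPM in ORX 1 to 6, against 7.00, 8.67, 31.2, 10.5 and 7.73 CPM in intact 1 to 5 (log2 1.10 ± 0.43; edgeR adjusted p = 0.149). Intact 3 stood inside the ORX range and the other intact libraries below it. Psmb8 had 33.4 to 118 CPM in ORX, against 72.0 CPM in intact 3 and 28.9 to 32.5 CPM in the other intact libraries (log2 0.88 ± 0.37). Tap1, a subunit of the peptide transporter, averaged 38.2 ± 18.3 CPM in ORX and 21.0 ± 9.18 CPM in intact (SD, n = 6 and 5; log2 0.86 ± 0.33). Its partner gene Tap2 had 103, 119, 135, 96.3, 92.4 and 123 CPM in ORX 1 to 6, against 75.5, 88.5, 142, 89.2 and 93.2 CPM in intact 1 to 5. The Tap2 groups overlapped (log2 0.19 ± 0.17). Without intact 3, Psmb9 and Tap1 passed the test (log2 1.72 and 1.15; edgeR adjusted p = 0.012 and 0.042), and the members called higher were 6 in number.

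Psmb9 and Tap1 lie head to head on chromosome 17 and share a promoter region, with 225 bases between the RefSeq start sites (GRCm38.p6). It is shown because both genes were high in intact 3 and passed without it. In the window chr17:34187306-34187605, on the strand of Tap1, the capitals mark the bases between the start sites.
Tap1: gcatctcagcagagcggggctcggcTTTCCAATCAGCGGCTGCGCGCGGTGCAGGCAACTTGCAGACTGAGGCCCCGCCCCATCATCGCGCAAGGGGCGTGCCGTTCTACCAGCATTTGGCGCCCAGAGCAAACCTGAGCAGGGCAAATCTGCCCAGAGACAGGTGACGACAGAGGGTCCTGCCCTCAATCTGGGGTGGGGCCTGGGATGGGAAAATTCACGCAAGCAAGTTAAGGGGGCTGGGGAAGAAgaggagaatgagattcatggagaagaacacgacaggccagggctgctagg
Neither the ISRE letters (GAAA, any 2 bases, GAAA) nor the GAS letters (TTCNNNGAA) were found there on either strand. The annotated genes also overlap, so that without a stated strand setting reads near their starts cannot be assigned to either with certainty.

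Promoter windows of 250 bases before to 50 after the start were given by RefSeq (GRCm38.p6) for 27 of the 38 members. The ISRE letters, GAAA, any 2 bases and GAAA, were present on either strand for 13 of the 27 genes (48.1%), against 3.99% of 27025 genes with a window. A longer form with CT added at its end was present for 8 (29.6%, against 0.303%), and the GAS letters for 7 (25.9%, against 9.55%). By class, ISRE was found for 9 of 15 type I genes and 3 of 8 gamma genes, and GAS for 3 of 15 and 3 of 8. Xaf1 and Irf7 had a window without either motif, whereas Dhx58, Mx2 and Rtp4 had no window and could not be looked at. These matches describe letters and do not show that a factor binds. Since the members were chosen for their known response to interferons, the contrast with all genes says nothing about these libraries. The windows below are of effectors and guanylate-binding proteins described above that held the ISRE letters, and capitals mark each match. They lie at chr4:156200769-156201068 (minus strand, Isg15), chr19:34583279-34583578 (plus strand, Ifit3), chr3:142559794-142560093 (plus strand, Gbp3) and chr3:142620413-142620712 (plus strand, Gbp2). In Isg15 there were 3 overlapping matches, in Gbp3 2 overlapping matches, in Ifit3 2 separate ones and in Gbp2 1.
Isg15: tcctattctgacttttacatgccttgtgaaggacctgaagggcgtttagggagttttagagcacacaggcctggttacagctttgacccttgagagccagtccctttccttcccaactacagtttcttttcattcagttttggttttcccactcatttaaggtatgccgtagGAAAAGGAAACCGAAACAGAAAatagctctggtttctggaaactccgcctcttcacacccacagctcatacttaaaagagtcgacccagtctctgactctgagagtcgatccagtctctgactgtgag
Ifit3: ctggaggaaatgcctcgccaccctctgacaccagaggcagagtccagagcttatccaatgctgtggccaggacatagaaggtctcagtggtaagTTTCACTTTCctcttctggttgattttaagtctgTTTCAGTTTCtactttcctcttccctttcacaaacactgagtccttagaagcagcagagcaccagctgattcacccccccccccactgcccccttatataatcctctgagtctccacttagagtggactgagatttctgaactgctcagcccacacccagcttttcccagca
Gbp3: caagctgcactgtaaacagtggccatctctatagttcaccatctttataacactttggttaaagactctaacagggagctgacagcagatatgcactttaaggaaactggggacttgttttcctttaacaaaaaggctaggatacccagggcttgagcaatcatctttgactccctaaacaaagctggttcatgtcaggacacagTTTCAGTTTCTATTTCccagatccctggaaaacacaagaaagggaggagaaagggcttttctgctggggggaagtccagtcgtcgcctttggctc
Gbp2: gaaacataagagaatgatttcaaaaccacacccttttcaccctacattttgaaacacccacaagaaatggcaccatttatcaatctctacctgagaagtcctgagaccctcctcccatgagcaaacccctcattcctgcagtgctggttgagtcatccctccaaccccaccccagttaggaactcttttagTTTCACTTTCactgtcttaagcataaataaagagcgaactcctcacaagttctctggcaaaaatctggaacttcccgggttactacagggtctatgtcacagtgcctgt

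For most members the ORX libraries differed among themselves more than the intact libraries did. The SD of log2 CPM was larger in ORX for 31 of 38 members (81.6%), against 55.4% of all tested genes. The median SD of the members was 0.54 in ORX and 0.31 in intact, and over all tested genes 0.35 in ORX and 0.32 in intact. The largest spreads within ORX were those of Ifi27l2a (SD 1.30 in ORX and 0.68 in intact), Zbp1 (0.998 and 0.34), Gbp6 (0.998 and 0.51) and Ifit3 (0.85 and 0.32). The highest ORX library exceeded the lowest over 3-fold for 16 members, and the highest intact library the lowest for 4. Such a range widens with the number of libraries, which is larger in ORX, and its share over all tested genes was not counted. Irf7 had an SD of 0.61 in ORX and 0.11 in intact, and Trim25 went the other way, with 0.16 in ORX and 0.70 in intact.

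**Figure D3:**
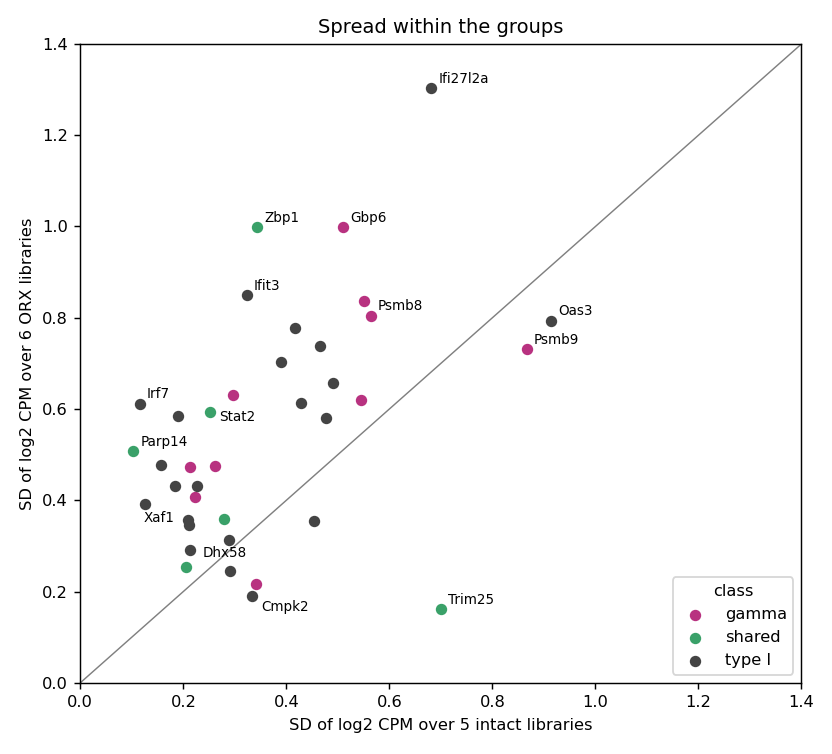
Each point is 1 member, coloured by class, with the SD of log2 CPM over the 6 ORX libraries on the vertical and over the 5 intact libraries on the horizontal axis. On the diagonal both are equal; 31 of 38 points lie above it, with Trim25 farthest below.

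The ORX libraries also ranked differently in the classes. Each library was described by the mean, over the genes of a class, of log2 CPM minus the mean of the intact libraries. For the type I class this was -0.18, 0.44, 0.64, 0.38, -0.05 and 0.50 in ORX 1 to 6, against 0.04, -0.06, -0.15, -0.08 and 0.25 in intact 1 to 5. Thus ORX 2, 3, 4 and 6 stood above every intact library and ORX 1 below them. For the gamma class it was 0.67, 1.32, 1.06, 0.30, -0.12 and 0.47 in ORX 1 to 6, against -0.27, -0.28, 0.66, -0.01 and -0.10 in intact 1 to 5. ORX 2 and 3 were high in both classes and ORX 5 was within the intact range in both. ORX 1 was high in the gamma class only, as was intact 3, and the gamma value exceeded the type I value by 0.85 in ORX 1, 0.88 in ORX 2, 0.41 in ORX 3 and 0.80 in intact 3. These class means are descriptions of chosen genes and were not tested.

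**Figure D4:**
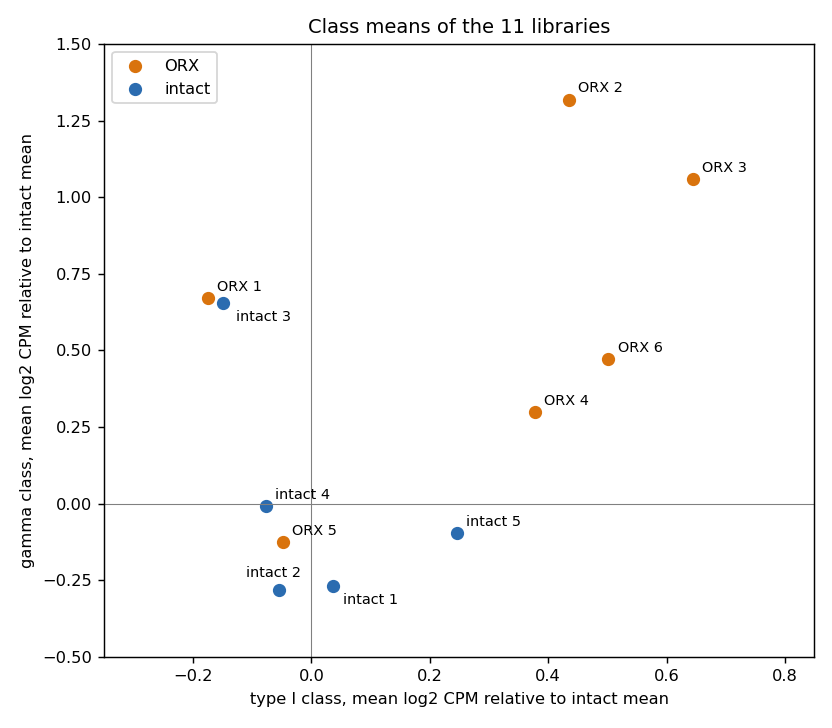
Each point is 1 library (ORX orange, n = 6; intact blue, n = 5), with the mean of the 22 type I genes on the horizontal and of the 10 gamma genes on the vertical axis, both as log2 CPM relative to the mean of the intact libraries. ORX 2 and 3 lie far up and to the right, ORX 5 lies among the intact libraries, and ORX 1 and intact 3 lie together at the upper left.

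Genes were also counted per library. ORX 2 was the highest ORX library for 16 of 38 members (42.1%, against 12.8% of all tested genes). ORX 6 was the highest for 10 (26.3%), which is near its share of all tested genes (29.8%). ORX 1 was the lowest for 15 members (39.5%, against 17.6% of all tested genes) and ORX 5 for 14 (36.8%, against 9.11%). ORX 1 was the lowest for 12 of 22 type I genes and for 0 of 10 gamma genes, whereas ORX 5 was the lowest for 7 of 10 gamma genes. ORX 2 and ORX 3 each exceeded every intact library for 27 of 38 members (71.1%), against 23.1% and 16.9% of all tested genes. For ORX 5 this held for 9 members (23.7%, against 20.9% of all tested genes), and 12 members lay below every intact library there (31.6%, against 19.98% of all tested genes). Among the intact libraries, intact 3 was the highest for 8 of 10 gamma genes and for 2 of 22 type I genes, and the lowest for 10 type I genes. Over all tested genes it was the highest for 25.9% and the lowest for 24.9%, the largest shares of the 5 intact libraries.

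**Figure D5:**
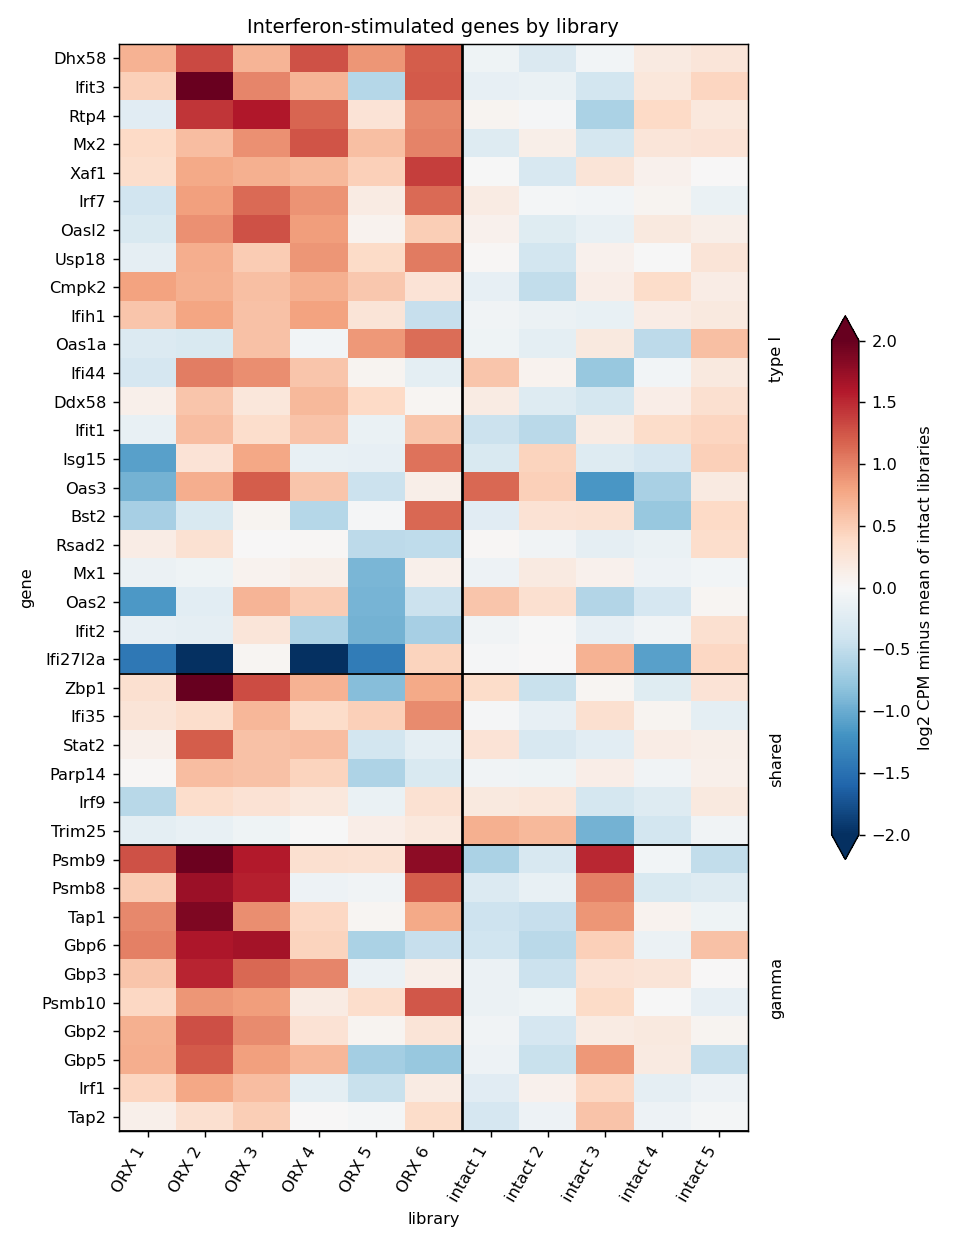
Each row is 1 member, sorted by fold change within its class, and each column 1 library, ORX left of intact. Colour is log2 CPM minus the mean of the 5 intact libraries, from -2 (blue) to 2 (red). ORX 2 and 3 are red over most rows, and the gamma rows are red in intact 3.

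A further list of 119 symbols of the interferon pathway was looked at, of which 116 were in the table and 90 passed the filter. It held genes upstream of the members and also induced genes like the members themselves. The tested ones included 35 further interferon-stimulated genes and 28 genes of gamma-induced GTPases and antigen presentation. Of these 90, 2 rose (Psme1 and Irf8) and 1 fell (Ptpn11). These counts equal 2.22% and 1.11% of the list, beside 3.03% and 3.18% of all tested genes. At an unadjusted p under 0.05, 12 were higher, which is 13.3%, against 10.7% of all tested genes. On the lower side were 9 of the 90, where 12.2% of all tested genes were lower. The median log2 fold change was 0.15. Among the 35 further interferon-stimulated genes, DESeq2 and limma voom each called Ifit3b and Ube2l6 higher and Ifi205 and Isg20 lower. No interferon gene could be tested: of 21 ligands, 16 had no count in any library and the other 5 had at most 4 counts in a library, Ifng at most 2. No receptor gene passed the test of edgeR (1 higher and 1 lower at an unadjusted p under 0.05), while DESeq2 called Il10rb higher and limma voom Il10rb higher and Ifngr1 lower. Ifnar1 averaged 79.6 ± 6.25 CPM in ORX and 78.7 ± 4.17 CPM in intact, and Ifnar2 129 ± 9.07 CPM in ORX and 125 ± 7.44 CPM in intact (SD, n = 6 and 5). Ifngr1, which binds interferon gamma, averaged 66.3 ± 12.1 CPM in ORX and 87.1 ± 16.1 CPM in intact (log2 -0.39 ± 0.16; edgeR adjusted p = 0.161), and Ifngr2 was at -0.23 ± 0.13. The receptor kinase genes Jak1 (-0.06 ± 0.16), Jak2 (0.12 ± 0.18) and Tyk2 (0.0040 ± 0.16) did not pass; the signs of Ifnar1, Jak1 and Tyk2 turned under other settings.

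Psme1, a subunit of the activator that caps the immunoproteasome, ranged from 249.8 to 343 CPM in ORX and from 153 to 167 CPM in intact. It rose to 291 ± 38.5 CPM in ORX, against 159 ± 5.76 CPM in intact (SD, n = 6 and 5; log2 0.87 ± 0.13; edgeR adjusted p = 0.00168), its groups did not overlap, and it passed in each alternative fit. Irf8, a transcription factor of macrophages and dendritic cells, had 63.9, 86.6, 27.6, 64.9, 32.1 and 30.5 CPM in ORX 1 to 6, against 16.2, 27.4, 20.2, 16.0 and 11.1 CPM in intact 1 to 5. The groups met without overlapping (log2 1.49 ± 0.33; edgeR adjusted p = 0.019), and the call was lost without intact 1 or intact 5 (edgeR adjusted p up to 0.0581). Ptpn11, the phosphatase SHP2, fell to 178 ± 27.9 CPM in ORX, against 272 ± 44.0 CPM in intact (log2 -0.61 ± 0.15; edgeR adjusted p = 0.0299), and its call was lost without any 1 of 6 libraries (ORX 1, 2 or 4, or intact 1, 2 or 5; edgeR adjusted p up to 0.0893). In the 28 tested genes of gamma-induced GTPases and antigen presentation, 1 rose, Psme1 (3.57%, against 3.03% of all tested genes). At an unadjusted p under 0.05, 3 were higher and 0 lower, and the higher ones were 10.7%, as over all tested genes (10.7%). The log2 fold change was above 0 for 24 of the 28 (85.7%, against 51.3% of all tested genes; median 0.40).

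Interferon responses differ between cell types, and in bulk tissue fewer cells of a type and less RNA per cell cannot be told apart. Of 10 macrophage markers 0 passed (0 also at an unadjusted p under 0.05 and with DESeq2 and limma voom), and their sum was 422 to 855 CPM in ORX and 321 to 728 CPM in intact. The 11 markers of T and natural killer cells were near 0: 8 were under the filter, 0 passed with edgeR, 1 with DESeq2 (Gzma) and 2 with limma voom (Gzma and Ncr1), and the sum was 5.86 to 13.0 CPM in ORX, highest in ORX 2, and 3.33 to 6.23 CPM in intact, highest in intact 3. Ncr1, a receptor gene of natural killer cells singled out after its values were seen, had 21, 18, 25, 13, 14 and 19 counts in ORX 1 to 6, against 4, 2, 21, 4 and 7 counts in intact 1 to 5 (edgeR adjusted p = 0.114). Intact 3, the intact library with the high gamma class, was the highest of its group for 3 of the 11 markers (Ncr1, Gzma and Prf1), while the others with a count there peaked in other intact libraries and Cd3e was lowest in intact 3. The part of such cells in the gamma values was not tested. The 5 B cell markers summed to 2.21 to 7.07 CPM in ORX and 0.834 to 3.85 CPM in intact, with 3 under the filter and 0 passing with edgeR or DESeq2 (Cd79b passed with limma voom). Of 6 markers of plasmacytoid dendritic cells, 4 were under the filter and under 1 CPM on average, Siglech among them, and Ly6d, which other cells also express, fell (log2 -1.53 ± 0.42; edgeR adjusted p = 0.0447), a call lost without any 1 of 8 libraries (all but ORX 6 and intact 3 and 4; edgeR adjusted p up to 0.116). In the lists of neutrophils, endothelium, stroma, fat and adrenal medulla 2, 8, 6, 8 and 8 genes, in this order, were tested with edgeR and 0 passed. At an unadjusted p under 0.05, 2, 5, 2, 0 and 5 of them were lower and 0 higher, where 12.2% of all tested genes were lower. In the same order, DESeq2, which also tested genes under the filter, called 2, 2, 1, 0 and 3 lower and limma voom 0, 2, 1, 1 and 5. Over all genes they called 5.81% and 7.74% lower. Of 8 cortex markers Cyp21a1, Hsd3b1 and Mc2r, genes of steroid synthesis and of the ACTH receptor, rose (log2 0.92, 1.14 and 1.10). Leaving out ORX 2, or ORX 5 alone, took the adjusted p of Cyp21a1 in edgeR past the threshold, to at most 0.0516. Scarb1, the receptor that takes up lipoprotein cholesterol, went the other way without passing (log2 -1.15 ± 0.43; edgeR adjusted p = 0.127). It was called lower by DESeq2, and limma voom called Scarb1 and Cyp11a1 lower.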

How the data were processed

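Total RNA of frozen adrenal glands (300 ng per library) was made into libraries with Illumina TruSeq chemistry, per the labels' protocols. A stranded guide and the RNA v2 guide are both named there, which leaves the strandedness unknown. The authors deposited raw read counts per gene symbol, written as 2 identical copies, of which the first was used. Tools in the submitters' processing notes are bcl2fastq 1.8.4 and Subread 1.5.1, with build mm10; the sources used here give neither annotation nor strand setting.

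Genes were filtered with filterByExpr (minimum count 10, minimum total 15), which left 14139, scaled by TMM and tested, ORX against intact with no covariate, by edgeR 4.0.16 (R 4.3.3), two-sided, at a threshold of 0.05 on p adjusted (Benjamini-Hochberg) over these genes. The SE is the log2 fold change divided by the root of F. Log2 CPM used a prior count of 2. Alternatives were other scalings and filters, DESeq2 1.42.0, limma 3.58.1 (voom with sample weights), an offset by transcript length, the sample number as a block and fits without libraries. Positions and lengths are from GENCODE M21 (GRCm38, also called mm10), promoters from RefSeq.

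The members, lists and classes were chosen with earlier results of these data known. Values in every library are given for members past the threshold, the most abundant and the smallest p of each role, and the 4 with the largest SD within ORX; those of Rtp4, Psmb9 and Mx2 were added after seeing the data. Of the pathway list, genes past the threshold and the receptor and Janus kinase genes are named (1 further gene of this rule is not reported here), and of each marker list genes past the threshold; others named were chosen after their values were seen. The table held 191 of the 195 listed genes outside the members, 9 by an older symbol. The labels do not say that each sample came from its own mouse, so p-values refer to the spread among samples only, part of which may be technical. The range of total counts sets the precision of low genes: 10 members averaged under 10 CPM.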

Additional observations from a re-analysis of the deposited data

Results flagged for a closer look

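Dixon's ratio was taken on log2 CPM, not on the CPM printed below, as the gap to the nearest library divided by the range. In 84 sets of values (38 members and 4 class means in each group), 5 had a highest or lowest library far from the rest by this ratio. Chance alone gives this in about 1 of 20 sets. Of the 5, 4 concern intact 3. Psmb8 had 72.0 CPM there, against 28.9 to 32.5 CPM in the other intact libraries (ratio 0.872). Psmb9 had 31.2 CPM, against 7.00 to 10.5 CPM (0.733), and Psmb10 had 44.6 CPM, against 30.4 to 33.9 CPM (0.717). The mean of the gamma class was 0.66 in intact 3, against -0.28 to -0.01 in the other intact libraries (0.710, just past the limit). These 4 are not independent, since the 3 genes belong to that class. Intact 3 also had the lowest sum of cortex markers (34419 CPM, against 49777 to 76865 CPM in the other intact libraries). In ORX 5, Mx1 had 7 counts (0.561 CPM), against 1.08 to 1.29 CPM in the other ORX libraries (ratio 0.771).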

How the results depend on the processing

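Members called higher numbered 2, and 1 to 6 without 1 library (6 without intact 3), 5 with the length offset, 7 without intact 3 and ORX 6, 7 with limma voom and 8 with DESeq2. Members called lower numbered 0, and 1 with limma voom. Pathway genes called higher numbered 2 (1 to 3 without 1 library, 5 with limma voom, 6 with DESeq2), and called lower 1 (0 to 4 without 1 library, 4 without intact 3 and ORX 6, 5 with limma voom, 5 with DESeq2). Over all genes, 428 were called higher (224 to 551 without 1 library, 961 with limma voom, 817 with DESeq2) and 450 lower (182 to 729 without 1 library, 742 with the length offset, 696 without intact 3 and ORX 6, 1095 with limma voom, 920 with DESeq2). The causes were not tested. The number of each sample as a replicate block, which needs ORX 6 left out, gave 1 member higher (Dhx58), 1 lower (Ifi27l2a), 0 pathway genes lower, and 222 genes higher and 187 lower over all; same-numbered samples correlated from -0.43 to 0.38 and only number 4 correlated best with itself, so the numbers were not taken as pairs.

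Of 980 fits of single genes, 893 kept direction and side of the threshold, 32 gained the call, 17 lost it and 38 turned sign, each for a gene without a call. Turned values (log2) were -0.081 for Isg15 without intact 3 and ORX 6, -0.042 with limma voom and -0.073 with the block; -0.040 for Irf9 and -0.015 for Oas3 without intact 3 and ORX 6; for Bst2 -0.0028 without a filter, -0.092 with the length offset, -0.28 without intact 3 and ORX 6, -0.28 with limma voom and -0.30 with the block; 0.047 for Jak1 with the block; -0.012 for Tyk2 without a filter and -0.011 with the length offset; and -0.00035 for Ifnar1 without a filter. Without 1 library, the range was 0.0024 to 0.40 for Isg15, -0.00061 to 0.19 for Irf9, -0.091 to 0.58 for Oas3, -0.17 to 0.024 for Rsad2, -0.34 to 0.12 for Bst2, -0.33 to 0.055 for Trim25, -0.18 to 0.018 for Mx1, -0.15 to 0.035 for Jak1, -0.096 to 0.078 for Tyk2 and -0.018 to 0.055 for Ifnar1. Class medians without 1 library ran from 0.33 to 0.49 (type I) and from 0.57 to 0.84 (gamma). With the shared genes counted in, they were 0.38 and 0.58. The larger SD in ORX held for 31 members with RLE scaling and 30 with library totals. The longer ISRE form left 8 members with a match.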
